A study of Caenorhabditis elegans with 2 samples.

Results

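The worm Caenorhabditis elegans has 612 nuclear genes annotated as tRNA genes in Ensembl release 115 (assembly WBcel235, the same sequence as ce11), and 276 of them lie on the X chromosome. All 276 X genes were taken, with no choice by their values, and the 336 autosomal tRNA genes served as the reference. The X genes were 64 to 120 bp long (median 72 bp), 136 on the + and 140 on the - strand, and had 106 distinct sequences. They gave tRNAs for 20 amino acids, with 3 genes whose amino acid was not given. The X held 15.6 tRNA genes per Mb and the autosomes 4.07 per Mb.

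The data were chromatin immunoprecipitation followed by sequencing (ChIP-seq), which lists the places in the genome where DNA was pulled down with a protein. There was 1 group, with 2 biological replicates of whole L2 larvae of mixed sex from strain OP355, which carries unc-119(tm4063) III and the integrated transgene wgIs355. Chromatin was sheared by sonication, the age beyond the larval stage was given as unknown, and no untagged, input or other control list was analysed here. The protein was MDL-1 by the antibody, strain and experiment labels, while 1 note among the labels puts the GFP-FLAG tag on KLU-1, so the tagged protein is taken as MDL-1 with that conflict unresolved. Only 1 transgenic line was used, and in whole larvae strong binding in a few cells and weak binding in many cells cannot be told apart.

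tRNA genes are transcribed by RNA polymerase III from promoters inside the gene. The A box and the B box within the transcribed part are bound by TFIIIC, which places TFIIIB just upstream of the gene, and a run of T on the non-template strand ends transcription. MDL-1 is the worm's Mad-type basic helix-loop-helix leucine zipper protein, a family known to bind the E-box CACGTG with a Max-like partner at promoters of RNA polymerase II genes.

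Each deposited list gives regions with a summit, the base of highest signal. A tRNA gene was counted as having a summit when one lay inside it or within 200 bp of either end. Of the 30000 regions of the list from both replicates pooled, 1076 form the authors' optimal list, whose label names a threshold on reproducibility. It held 296 X summits, 11 of them near tRNA genes, and so did the 1076 strongest pooled regions. Membership thus does not show that a single peak was strong in both replicates. Each replicate has its own list of 30000 regions. Summits of the optimal list lay near 13 X tRNA genes, in 11 separate peaks. For 8 of these peaks the summit lay inside the gene or at most 60 bp before it, and their 5′ ends are shown because that is where the X tRNA summits gathered. The bases before the gene are in lower case and the first 20 bases of the gene, which run into the A box, are in capitals, from the ce11 sequence, 5′ to 3′ on the strand of the gene.
C28G1.t1, chrX:8836053-8836132, + strand: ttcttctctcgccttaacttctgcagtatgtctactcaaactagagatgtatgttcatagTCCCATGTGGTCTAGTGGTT
M02F4.t2, chrX:3036028-3036107, - strand: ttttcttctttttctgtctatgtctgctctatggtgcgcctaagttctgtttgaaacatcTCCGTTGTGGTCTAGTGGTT
C33G3.t2, chrX:14063999-14064078, - strand: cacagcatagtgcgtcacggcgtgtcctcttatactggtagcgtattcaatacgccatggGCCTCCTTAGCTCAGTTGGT
Y59E1B.t2, chrX:1880869-1880948, - strand: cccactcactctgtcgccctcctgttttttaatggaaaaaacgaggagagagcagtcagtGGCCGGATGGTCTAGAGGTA
F46G11.t2, chrX:5801263-5801342, - strand: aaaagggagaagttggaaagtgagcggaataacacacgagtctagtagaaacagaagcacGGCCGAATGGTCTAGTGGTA
C02B4.t2, chrX:12665168-12665247, + strand: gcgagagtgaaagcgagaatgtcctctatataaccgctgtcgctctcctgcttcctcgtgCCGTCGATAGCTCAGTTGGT
C04E7.t1, chrX:353317-353396, - strand: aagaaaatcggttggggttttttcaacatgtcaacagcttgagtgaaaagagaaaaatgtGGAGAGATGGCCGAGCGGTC
R11.t1, chrX:16209833-16209912, - strand: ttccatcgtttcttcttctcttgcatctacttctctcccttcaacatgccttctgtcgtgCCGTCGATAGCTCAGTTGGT

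The word GGTTCGA, the core of the B box, was in 177 of the 276 X tRNA genes (64.1%) and in 218 of the 336 autosomal ones (64.9%), read on the strand of the gene. It was in 11 of the 13 X genes with an optimal summit. A complete gene is shown for the arginine gene C18A11.t2, whose summit lay 3′ of the gene, and for the lysine gene C33G3.t2, whose summit lay 13 bp before it, with GGTTCGA in capitals.
C18A11.t2, chrX:8036685-8036757, - strand: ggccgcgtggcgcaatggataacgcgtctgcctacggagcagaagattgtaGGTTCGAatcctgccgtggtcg
C33G3.t2, chrX:14063946-14064018, - strand: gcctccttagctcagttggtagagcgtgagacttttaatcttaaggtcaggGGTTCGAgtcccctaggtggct

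In 2 of the 11 peaks the summit lay between a pair of tRNA genes that point away from each other, so that the sequence between them is the 5′ flank of both. These stretches are printed whole on the + strand, with the summit and 5 bases to each side in capitals.
M02F4.t2 to M02F4.t1, chrX:3036048-3036163, + strand: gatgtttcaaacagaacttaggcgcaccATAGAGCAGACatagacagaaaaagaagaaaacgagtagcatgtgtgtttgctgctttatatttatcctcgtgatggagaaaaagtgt
F46G11.t2 to F46G11.t1, chrX:5801283-5801471, + strand: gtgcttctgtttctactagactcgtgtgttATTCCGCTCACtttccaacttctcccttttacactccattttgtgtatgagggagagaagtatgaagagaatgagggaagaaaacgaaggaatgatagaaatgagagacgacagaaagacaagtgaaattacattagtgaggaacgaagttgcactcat

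The gene with the highest signal, F41D9.t3, and the gene whose summit carried the E-box, F14B8.t1, are shown by the 101 bases around the summit on the strand of the gene. The capitals mark AGACGCAG in the first and CACGTG in the second.
F41D9.t3, chrX:8404345-8404445, + strand: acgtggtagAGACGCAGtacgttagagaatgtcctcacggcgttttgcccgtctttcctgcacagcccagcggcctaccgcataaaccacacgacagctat
F14B8.t1, chrX:6903209-6903309, - strand: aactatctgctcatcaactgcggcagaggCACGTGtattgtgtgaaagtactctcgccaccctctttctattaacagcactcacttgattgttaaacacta

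X tRNA genes carried summits more often than autosomal tRNA genes, in every list. An optimal summit lay near 13 of 276 X genes (4.71%, exact 95% Clopper-Pearson interval 2.53 to 7.92) and near 6 of 336 autosomal genes (1.79%, 0.658 to 3.85), against 3.1% of all 612 tRNA genes. A pooled summit lay near 148 X genes (53.6%, 47.6 to 59.6) and near 128 autosomal genes (38.1%, 32.9 to 43.5), against 45.1% of all tRNA genes. The intervals of X and autosomes overlapped for the optimal list and did not overlap for the pooled list. They cover counting error only, and clustered genes can share a summit.

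The same order held in each replicate alone. In replicate 1, 142 X genes (51.4%) and 140 autosomal genes (41.7%) had a summit, against 46.1% of all tRNA genes. In replicate 2 the numbers were 117 (42.4%) and 104 (30.95%), against 36.1% of all. The gap between X and autosomes was 9.78 percentage points in replicate 1, 11.4 in replicate 2 and 15.5 in the pooled list. Among the 1076 strongest regions of replicate 1, summits lay near 16 X and 6 autosomal genes, and 3.59% of all tRNA genes had one. Among those of replicate 2, they lay near 20 X and 6 autosomal genes, and 4.25% of all had one. Over the 2 replicates, each giving a share on the X and one on the autosomes, the gap was 10.6 ± 1.17 percentage points (SD, n = 2), with the X higher in 2 of 2. An exact two-sided permutation test over these 2 pairs gave p = 0.5, the smallest p that 2 pairs allow, so the comparison could not pass a threshold.

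By chromosome, the pooled share was 37.9% on I, 43.9% on II, 32.8% on III, 45.1% on IV, 32.1% on V and 53.6% on X. The X was thus above each autosome, although its interval overlapped those of I, II and IV. Optimal summits lay near 1 tRNA gene on III (1.56%), 2 on IV (2.82%) and 3 on V (3.85%, 0.800 to 10.8), and near none on I and II. The X share of 4.71% (2.53 to 7.92) had an interval that overlapped those of all autosomes. The strongest of these autosomal summits lay at F29C4.t1 (arginine, chromosome IV, signal 58.0), F41A4.t1 (aspartate, IV, 53.1), F57F5.t1 (isoleucine, V, 52.8) and the pair T23F1.t1 and T23F1.t2 (lysine and proline, V, 51.7). Each was below the signal of the 4 strongest X peaks.

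**Figure D1:**
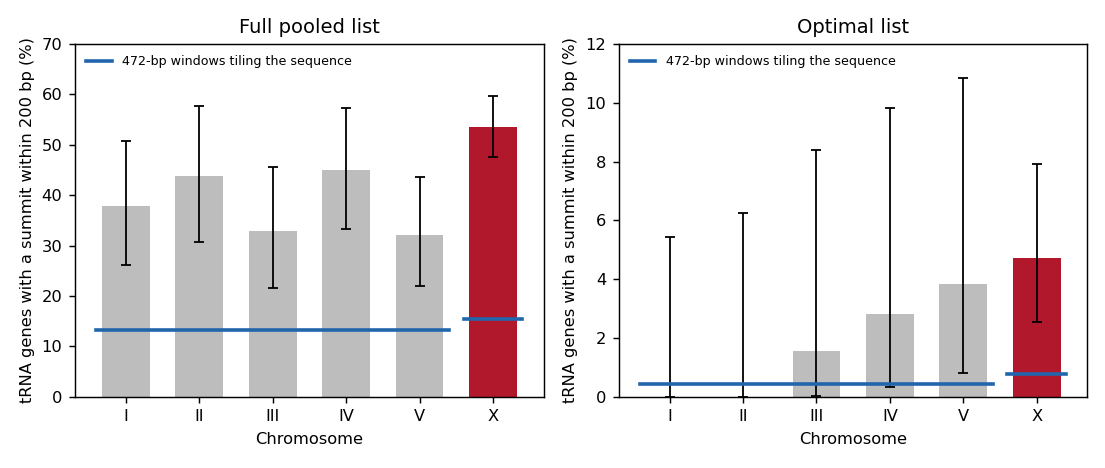
Percent of the tRNA genes of each chromosome with a summit within 200 bp, in the full pooled list (left) and the optimal list (right). Bars are shares, whiskers are exact 95% intervals, and blue lines are the percent of 472-bp windows tiling the autosomes or the X that hold a summit. The X stands at 53.6% and 4.71%, above each autosome in both panels. Its interval overlaps those of I, II and IV on the left and those of all autosomes on the right.

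The X chromosome as a whole was also richer in summits than the autosomes, so the shares are set beside windows of 472 bp, the width of a typical tRNA gene with its flanks, laid end to end. Of these windows on the X, 0.781% held an optimal summit and 15.4% a pooled one, while on autosomes the shares were 0.444% and 13.3%. The share of X tRNA genes was 6.03 times that of X windows for the optimal list, where the autosomal ratio was 4.02. For the pooled list the ratios were 3.48 on the X and 2.86 on autosomes. They were 3.22 and 3.15 in replicate 1 and 2.75 and 2.32 in replicate 2. Counted by genes, the X ratio was thus higher in each list, though by little in replicate 1. A summit shared by clustered genes counts more than once here, and counted by summits the order of replicate 1 was not kept, as given below. Against windows whose central base lies outside protein-coding exons, all ratios were lower. They were then 4.88 and 3.16 for the optimal list and 3.13 and 2.48 for the pooled list. In replicate 1 they were 2.97 and 2.85, and in replicate 2 they were 2.51 and 2.05. Protein-coding genes give another scale: 3.08% had an optimal summit and 39.9% a pooled summit between 1000 bp before and 200 bp after a start.

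Seen from the summits, those near X tRNA genes were a small part of the X list. They made up 11 of 296 X summits of the optimal list (3.72%, 1.87 to 6.55) and 138 of 5990 of the pooled list (2.30%), while the windows around X tRNA genes cover 0.680% of the chromosome. On autosomes the shares were 0.641% and 0.508%, and the windows cover 0.185%. In replicate 1 the shares were 2.10% on the X and 0.593% on autosomes, and in replicate 2 they were 1.90% and 0.425%. Each summit counts once in these shares. Set against the cover, the replicate 1 share was slightly higher on autosomes, and the other lists were higher on the X. Within the optimal list the summits at X tRNA genes ranked low: their median rank was 856, where the median over all 296 X summits was 518. Within the pooled list they ranked high, with a median rank of 6301.5 against 14087.5 for all X summits.

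The share of X summits near a tRNA gene was highest in the upper ranks. Of the X summits ranked 1077 to 5000 in the pooled list, 52 of 905 lay near a tRNA gene (5.75%, 4.32 to 7.47). The share was 3.72% among ranks 1 to 1076, with an overlapping interval (1.87 to 6.55), 1.77% among 5001 to 10000, 1.57% among 10001 to 20000 and 1.45% among 20001 to 30000. In replicate 1 the X share also peaked in ranks 1077 to 5000, at 4.54%, and in replicate 2 it was highest in the first 1076, at 6.06%. Autosomal shares were lower in each rank class of each list. The windows around tRNA genes also cover less of the autosomes (0.185%) than of the X (0.680%). The shares were not adjusted for this cover, and set against it the order of X and autosomes turned in some classes. In ranks 5001 to 10000 the autosomal share was 0.552% in the pooled list, 0.583% in replicate 1 and 0.496% in replicate 2. The X shares there were 1.77%, 1.42% and 1.55%, lower relative to cover in each list. In ranks 1 to 1076 the X share was the higher one relative to cover in each list.

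**Figure D2:**
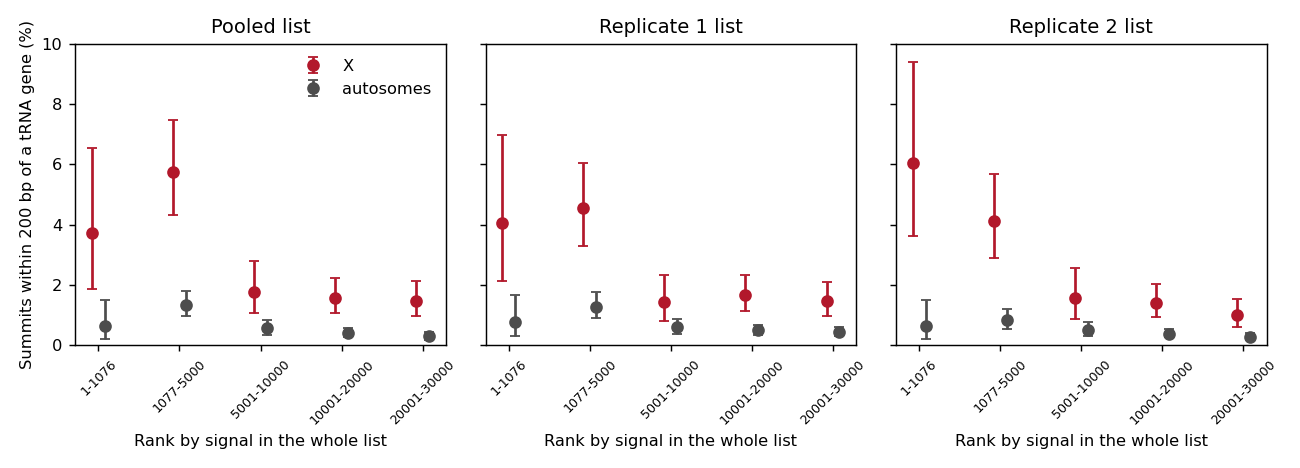
Percent of summits on the X (red) or the autosomes (grey) that lay within 200 bp of a tRNA gene, by rank class within the pooled list and each replicate's list. Points are shares and whiskers exact 95% intervals. X points lie above autosomal points in each class, from 5.75% to 1.45% in the pooled list. The points are not adjusted for the sequence near tRNA genes, 0.680% of the X and 0.185% of the autosomes. Set against this cover, the order turns in some classes.

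The summits were placed unevenly about the X tRNA genes. Each of the 138 pooled summits was given to its nearest tRNA gene: 60 lay 5′ of the gene, 51 inside it and 27 on the 3′ side. The 5′ side and the gene together held 80.4% (72.8 to 86.7). They also make up the larger part of the sequence searched, so an even spread would put most summits there. Of the summits outside the gene alone, 69.0% were 5′ (58.1 to 78.5). In replicate 1 the counts were 60, 35 and 36, and in replicate 2 they were 55, 29 and 30, so that 72.5% and 73.7% lay 5′ or inside. The replicate 1 share is just below the pooled interval. The autosomal tRNA genes had 57, 34 and 31 pooled summits in these places, with 74.6% 5′ or inside (65.9 to 82.0). The X and autosomal intervals overlap.

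Within the 5′ flank the X summits gathered 26 to 50 bp before the gene. Over all X tRNA genes this stretch held 28 pooled summits, or 4.06 per kb. The gene bodies held 2.47 per kb, the first 25 bp after the gene 1.01 per kb, and the stretches 501 to 2000 bp away on either side 0.401 per kb. The 26 to 50 bp stretch was the densest of the 25-bp stretches in both replicates too, with 2.75 per kb in replicate 1 and 3.33 per kb in replicate 2. On autosomes the pooled value there was 2.74 per kb, against 0.321 per kb far away. Among the 11 optimal X peaks 4 had their summit in it, and the median 5′ distance of the 7 summits before a gene was 38 bp.

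**Figure D3:**
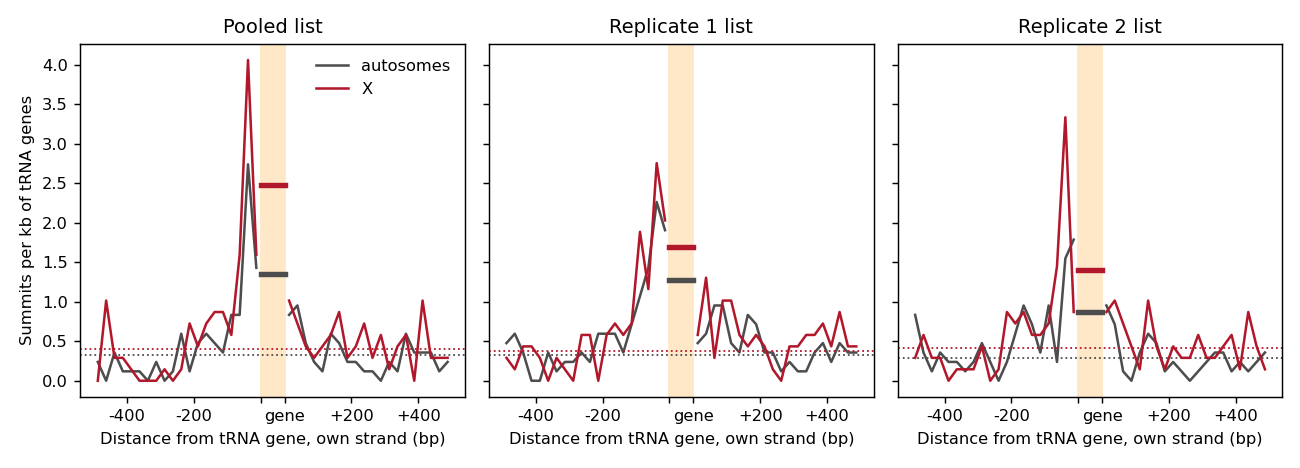
Summits per kb of sequence in 25-bp steps from 500 bp before to 500 bp after tRNA genes, read on the strand of each gene, for X (red) and autosomal (grey) genes. The shaded band is the gene body drawn at the median length, thick bars are its value, and dotted lines are the values 501 to 2000 bp away. The highest X value of each panel lies 26 to 50 bp before the gene, at 4.06, 2.75 and 3.33 per kb.

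The optimal peaks at X tRNA genes were each 340 bp wide, and their signals ranged from 50.4 to 90.2 with a median of 55.5, on the authors' scale, whose unit was not given. The list itself ran from 48.3 to 1134 with a median of 72.5, so 9 of these 11 peaks lay in its weaker part, and 2 remained in its stronger 538 regions. The genes decode 8 amino acids. Because each list has its own scale, replicates are compared by rank within their lists.

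F41D9.t3, an asparagine tRNA gene (chrX:8404499-8404571, + strand) inside sulp-3, a gene of the sulfate permease family, had the highest signal, 90.2 (rank 388), with the summit 104 bp before the gene. Its rank was 543 in replicate 1 and 266 in replicate 2. C18A11.t2, an arginine gene, followed with 80.4 (rank 469), and its ranks were 501 and 567. It was the sole gene of the 11 with the summit on its 3′ side, 80 bp from the end. The divergent pair M02F4.t2 (glutamate) and M02F4.t1 (glycine) shared a summit with signal 63.9 (rank 670), 34 and 83 bp before the 2 genes, and ranked 788 and 661. These 4 genes were the only ones with an optimal summit that had a summit among the 1076 strongest regions in both replicates.

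The glutamate gene C28G1.t1 had signal 68.5 (rank 606) with the summit 43 bp before the gene, at rank 530 in replicate 1 and 1687 in replicate 2. This summit also lay in the promoter windows of C28G1.2 and of sec-15, which encodes an exocyst subunit. The lysine gene C33G3.t2 had signal 57.3 (rank 807), at ranks 869 and 1997. The divergent proline pair F46G11.t2 and F46G11.t1 shared a summit of signal 53.3 (rank 917), 36 bp before the first and 154 bp before the second, at ranks 874 and 2707. The tyrosine gene C02B4.t2, inside the nuclear hormone receptor gene nhr-17, had signal 51.7 (rank 961) with the summit 38 bp before the gene, at ranks 701 and 9787. At these 5 genes the rank was better in replicate 1.

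The order was the opposite at the other 4 genes. The proline gene Y59E1B.t2 had its summit inside the gene, with signal 55.5 (rank 856), at rank 2302 in replicate 1 and 873 in replicate 2. The leucine gene C04E7.t1 (signal 50.7, rank 1001), in the promoter window of sor-3, ranked 3395 and 634. The tyrosine gene R11.t1 (signal 50.4, rank 1010) ranked 1522 and 732. Both had the pooled summit inside the gene.

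The leucine gene F14B8.t1, inside pes-23, stood furthest apart between replicates. Its summit, 64 bp before the gene, had signal 51.9 (rank 958), at rank 16504 in replicate 1 and 520 in replicate 2. All 13 genes had a summit in both full replicate lists, and each was among the 1076 strongest in at least 1 replicate: 9 genes in replicate 1, 8 in replicate 2 and 4 in both.

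**Figure D4:**
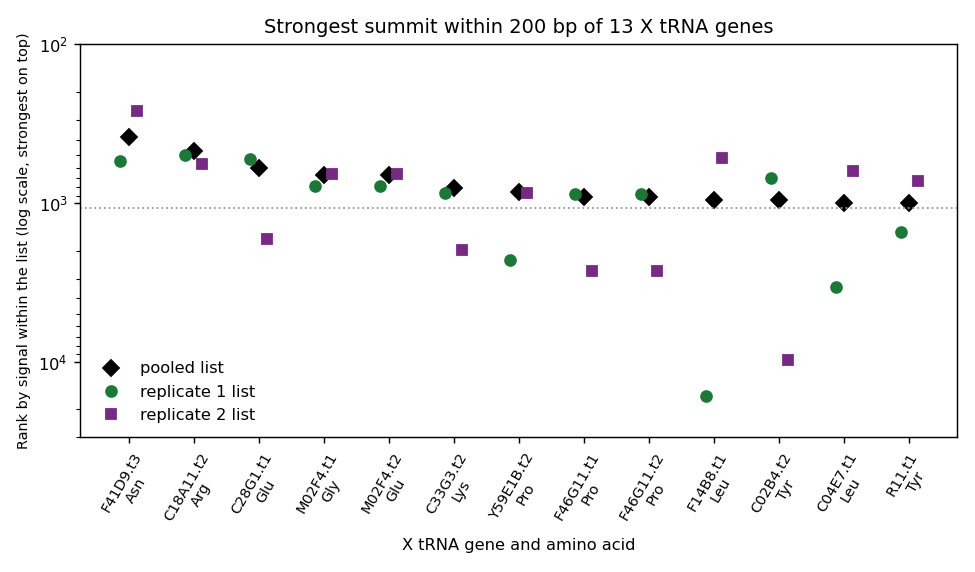
Rank of the strongest summit within 200 bp of each of the 13 X tRNA genes with an optimal summit, in the pooled list and each replicate's list, on a log axis with the strongest on top. The dotted line is rank 1076. Pooled ranks run from 388 to 1010, while replicate ranks reach 16504 at F14B8.t1 and 9787 at C02B4.t2.

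The distance limit of 200 bp fell in a gap. The farthest member inside it was F46G11.t1 at 154 bp, and the nearest X gene beyond it was the glutamine gene R04A9.t1 at 225 bp. R04A9.t1 was among the 1076 strongest regions in both replicates, at ranks 690 and 948, with summits closer to the gene, while the strongest pooled summit within 200 bp of it ranked 5357. The next X gene, ZK154.t4, was 481 bp from an optimal summit.

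Below the optimal list, the 10 X genes with the next strongest pooled summits had signals from 41.6 to 47.9 (ranks 1092 to 1370). R04D3.t2 (valine) came first with 47.9 and ranks of 1252 and 1923 in the replicates. The divergent glycine pair ZK154.t4 and ZK154.t3 shared a summit of 46.8, which lay 47 bp before the first. The others were C42D8.t1 and C29F7.t3 (isoleucine), W02H3.t1 (leucine), F52H2.t2 (asparagine), E03E2.t1 (serine), E01H11.t1 (methionine) and F56C3.t1 (glycine). Of these 10 genes, 9 had a summit in both replicates. The exception, F56C3.t1, ranked 758 in replicate 1 and had none within 200 bp in replicate 2. None of the 10 was among the 1076 strongest in both replicates, and 6 were in 1 of them.

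Agreement between replicates at single X tRNA genes was partial. A summit was near 86 X genes in both replicates, which is 60.6% of the 142 in replicate 1 and 73.5% of the 117 in replicate 2. On autosomes 62 genes were shared, or 44.3% and 59.6%. Only replicate 1 had a summit at 56 X genes, only replicate 2 at 31, and neither at 103. Of the 86 shared genes 82 also had a pooled summit, and 17 X genes had a pooled summit without one in either replicate. Across the 86 genes the signals of the 2 replicates had a Spearman rho of 0.350, given as a description across genes that share libraries.

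The genes were also grouped by how they are arranged. Genes chained by gaps of at most 2000 bp formed 182 X clusters, of which 123 were single genes. A pooled summit lay near 73 of these 123 single genes (59.3%, 50.1 to 68.1), 42 of 84 genes in pairs (50%, 38.9 to 61.1) and 33 of 69 in larger clusters (47.8%, 35.6 to 60.2). The intervals overlap. The X cluster with the most genes, that of F22F1.t9 with 8 genes for aspartate, serine, methionine and isoleucine over 4.16 kb, also had the most pooled summits, 4, the strongest at 29.4. The 3 proline genes from C16B8.t1 held 3 summits, as did the proline and serine genes from C48C5.t3 and the 4 valine genes from T01B4.t1. The 6 histidine genes from F28H6.t2 held 1, of signal 12.6, close to the list's floor of 12.5. Of the clusters with 5 genes, that of H08J11.t5 (glutamine) held 2 summits, that of K01A12.t1 (arginine and cysteine) 1, and that of R04E5.t5 (cysteine and glycine) none. The clusters rich in genes were thus not uniformly rich in summits.

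Direction was examined in neighbouring X genes at most 500 bp apart. Of 24 divergent pairs, 2 had an optimal summit between the genes and 7 a pooled one. The counts were 0 and 2 of 16 convergent pairs, and 0 and 5 of 25 pairs in the same direction. Both optimal summits between X neighbours were those of the M02F4 and F46G11 pairs printed above. Between divergent, convergent and same-direction X pairs lay a summit in 10, 4 and 9 cases in replicate 1 and in 6, 2 and 7 in replicate 2. Their median gaps were 160.5, 177.5 and 348 bp. On autosomes an optimal summit lay between 0 of 18 divergent, 1 of 5 convergent and 0 of 8 same-direction pairs. A preference by direction was not tested.

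The shares by place relative to protein-coding genes had overlapping intervals. A pooled summit was near 99 of 180 X genes between protein-coding genes (55.0%, 47.4 to 62.4), 27 of 45 inside one on the opposite strand (60%, 44.3 to 74.3) and 22 of 51 inside one on the same strand (43.1%, 29.3 to 57.8). It was near 34 of the 54 X genes that lie between 1000 bp before and 200 bp after a protein-coding start (63.0%, 48.7 to 75.7) and 114 of the 222 that do not (51.4%, 44.6 to 58.1). Other small RNA genes, such as those annotated as ncRNA, lay within 200 bp of 172 X tRNA genes, 91 of which had a pooled summit (52.9%), against 57 of the other 104 (54.8%). An optimal summit was near 10 of these 172 genes (5.81%) and 3 of the other 104 (2.88%). Signal from these other small RNA genes cannot be told apart from that of the tRNA gene.

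X tRNA genes without an identical copy among the annotated nuclear tRNA genes had the lowest share. Copies that are not annotated as tRNA genes were not counted. Of the 57 X genes whose sequence occurs once among the annotated genes, 22 had a pooled summit (38.6%, 26.0 to 52.4). None had an optimal one, where 4.71% of all X genes did, so few would be counted among 57 at that share. The share was 28 of 44 (63.6%, 47.8 to 77.6) for sequences with 2 to 8 copies and 98 of 175 (56.0%, 48.3 to 63.5) for 9 or more, and the median pooled signal was 17.9, 24.8 and 28.1. The intervals of the first and last class overlap. In replicate 1 the shares were 38.6%, 59.1% and 53.7%, and in replicate 2 they were 22.8%, 52.3% and 46.3%. On autosomes the pooled shares of the 3 classes were 29.1%, 37.5% and 42.7%, so the class without copies was lowest there too. Of the 86 autosomal genes in that class, 2 had an optimal summit. Reads that fall within identical genes cannot be placed by sequence alone: of all words of 32 bases inside X tRNA genes, the median gene had 0% that occur once in the genome, while the median of the 200-bp flanks was 100%. How reads with several matches were treated was not given in the sources used here, and its part in this order was not tested. Where the flanks were at least 90% unique, 125 of 228 X genes had a pooled summit (54.8%), against 23 of 48 elsewhere (47.9%).

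By internal words, the intervals of the shares overlapped. A pooled summit lay near 91 of the 177 X genes with GGTTCGA (51.4%, 43.8 to 59.0) and 57 of the 99 without it (57.6%, 47.2 to 67.5). For the A box word TGGCNNAGT the counts were 16 of 23 (69.6%, 47.1 to 86.8) and 132 of 253 (52.2%, 45.8 to 58.5). A run of at least 4 T within 30 bp after the gene followed 273 of the 276 X genes, and the 3 genes without it had no summit in any list, which at 0 of 3 allows a share of up to 70.8%. Upstream GC content differed between X genes with and without a pooled summit: over the 50 bp before the gene it was 42.3% ± 7.87 (SD, n = 148 genes) with one and 38.0% ± 8.92 (n = 128) without, and the part of base composition in the result was not tested.

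Every one of the 20 amino acids had X genes with a pooled summit. The share ran from 5 of 13 isoleucine genes (38.5%, 13.9 to 68.4) and 11 of 27 arginine genes (40.7%, 22.4 to 61.2) to 10 of 13 alanine genes (76.9%, 46.2 to 94.96) and 5 of 6 asparagine genes (83.3%, 35.9 to 99.6). These intervals overlap, so the order of the amino acids is not resolved. For 17 of the 20 the X share was above the autosomal one in the pooled list, for 13 in replicate 1 and for 16 in replicate 2. The exceptions in the pooled list were glutamate, cysteine and arginine. Tyrosine had 4 of 8 X genes with a pooled summit and 1 of 11 autosomal ones.

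**Figure D5:**
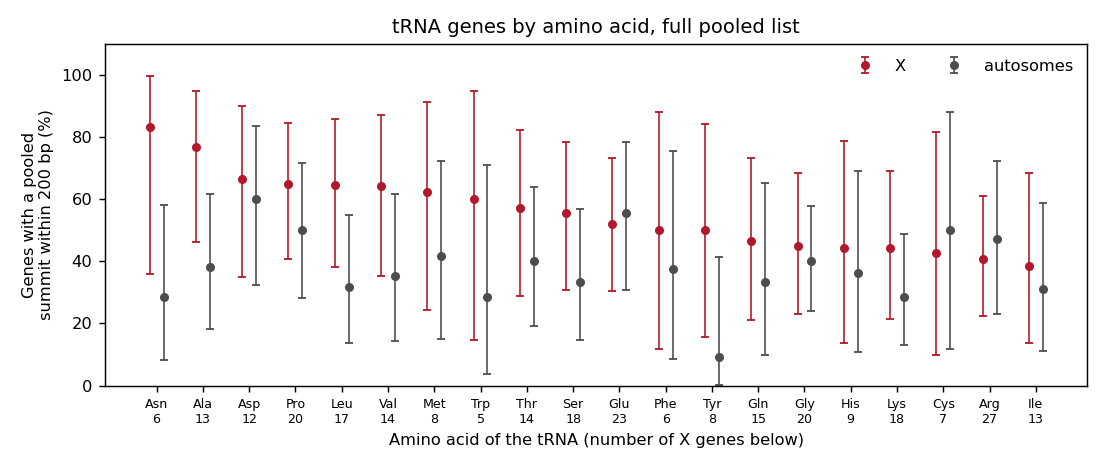
Percent of X (red) and autosomal (grey) tRNA genes with a pooled summit within 200 bp, by the amino acid of the tRNA, ordered by the X share. Points are shares and whiskers exact 95% intervals. The X share runs from 83.3% for asparagine to 38.5% for isoleucine and lies above the autosomal one for 17 of 20 amino acids.

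Words near the summits were counted on both strands within 50 bp of each (CACGTG is its own reverse complement), and different words may share bases. The E-box CACGTG was near 1 of the 11 optimal summits at X tRNA genes (9.09%), that of F14B8.t1, and near 58 of the other 285 optimal X summits (20.4%). In the pooled list it was near 2 of 138 (1.45%) and 205 of 5852 (3.503%). AGACGCAG was near 1 of the 11 (9.09%) and 26 of the 285 (9.12%). GAGAGA was near 3 of the 11 (27.3%), those of C28G1.t1, Y59E1B.t2 and C04E7.t1, and near 82 of the 285 (28.8%). In the pooled list GAGAGA was near 23 of 138 (16.7%) and 452 of 5852 (7.72%). On autosomes it was near 13 of 122 (10.7%) and 1937 of 23888 (8.11%). The 138 X summits also had a better median rank than all X summits (6301.5 against 14087.5), and the part of rank was not tested. The 101 bases around these pooled summits had a GC content of 43.9% ± 8.91 (SD over 138 summits), against 34.8% ± 10.1 at the other 5852, and include tRNA gene sequence in many cases. Of the 5 autosomal optimal summits at tRNA genes, 2 had CACGTG.

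The protein-coding genes of tRNA synthesis were looked up as a list of 33 symbols for RNA polymerase III, its factors and tRNA processing, of which 29 matched. None of the 29 had an optimal summit in the promoter window, where 3.08% of all protein-coding genes did, and 0 of 29 allows up to 11.9%. A pooled summit was present at 16 (55.2%, 35.7 to 73.6), against 39.9% of all. The strongest were at rpc-1, which encodes the largest subunit of RNA polymerase III (signal 42.9), ssb-1, the La protein that binds new polymerase III transcripts (41.9), rpac-19, a subunit shared by polymerases I and III (31.95), nsun-2, an RNA cytosine methyltransferase (29.9), and rtcb-1, the tRNA ligase (25.3). Of the 29 genes, 9 had no promoter summit in any list. They were tftc-3 and tftc-5, which encode TFIIIC subunits, brf-1, a TFIIIB subunit, mafr-1, the worm Maf1 repressor of polymerase III, and snpc-1.1, snpc-3.1, popl-1, tut-2 and elpc-3.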

How the data were processed

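The authors deposited peak lists, in which each region has a signal value whose scale was not given and a summit offset in bases; the aligner, peak caller and reproducibility threshold were not given in the sources used here. The ce11 lists were used: optimal (1076 regions), pooled (30000) and 1 per replicate (30000 each). The files give no read counts, so depth is unknown. Replicates have separate biosample labels, and nothing else in the labels marks a batch.

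Summits were matched to Ensembl release 115 tRNA genes within 200 bp of the gene ends, and signs of distance follow the strand of the gene. Amino acids came from RefSeq product names. Shares have exact 95% Clopper-Pearson intervals (scipy 1.17.1, pandas 2.3.3, Python 3.11.15). On simulated data 200 of 200 placed summits were handled correctly. Those placed within 200 bp were found with their distance and side, and those placed farther away were left out. With 1 group, no groups were tested against each other. The gap between X and autosomal shares within each replicate was compared with an exact two-sided permutation test over 2 pairs, which was added after the values were seen. The genes named are all X tRNA genes with an optimal summit, the next 10 by pooled signal, the X clusters with the most genes or summits, the strongest autosomal genes and those just outside the distance limit. The members and lists were chosen with earlier results of these data known. Of 33 symbols for tRNA synthesis, 4 did not match.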

Additional observations from a re-analysis of the deposited data

How the results depend on the processing

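The share of X tRNA genes with a summit was above the autosomal share in 23 of 23 settings compared. These settings include the reported values themselves, and the others are overlapping windows and parts of the same data, so they are not independent. Some rest on very few genes. Of 57 alternative values 33 stayed close to the reported one, which means within 1.5 times for a count, within the reported interval for the 5′ share and within the SD of the replicates for the median signal. Neither tally is a measure of robustness. Settings that leave out genes or regions lower the counts by design, and median signals of single replicates are on other scales. With summits inside the gene alone, the optimal list gave 3 X and 1 autosomal genes in 3 X peaks, and the pooled list 51 and 34 genes. Within 1000 bp, the optimal counts were 21 and 10, and the pooled autosomal count 204. In the stronger part of the optimal list, 2 X genes in 2 peaks and 0 autosomal genes remained. The 10000 strongest pooled regions gave 87 X and 72 autosomal genes, and the 5000 strongest 69 and 49. Leaving out tRNA genes with another small RNA gene within 200 bp left 3 of 104 X and 0 of 128 autosomal genes with an optimal summit, and 57 and 47 with a pooled one. The X share then fell from 4.71% to 2.88% for the optimal list and was 54.8% against 53.6% for the pooled list, and the cause was not tested. When each replicate was left out in turn, the optimal counts were 16 to 20 X genes (20 without replicate 1) and 6 autosomal genes, in 12 to 18 X peaks. The full replicate lists, in place of the pooled list, gave 117 to 142 X and 104 to 140 autosomal genes, also as reported above. The share of X summits 5′ or inside was then 72.5% to 73.7%, and the median signal 11.9 to 16.3, on the replicates' own scales. The ce10 lists were not run. Replicate lists of 1 group, with no control list analysed here, limit these results to a description. What other immunoprecipitations give at tRNA genes was not tested.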
